A study of Mus musculus with 6 samples.

Results

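Transcripts of 43 genes for lysosomal hydrolases and lysosome membrane proteins were followed in macrophages that had been differentiated in culture from mouse bone marrow. The genes were listed by name and function, with no threshold on a measured value, and all 43 were found among the 56691 gene rows of the count tables. Cultures of 3 mice (a, b and c) received 2 µM thiothixene, an antipsychotic drug that blocks dopamine receptors, or the solvent DMSO for 24 h from day 6 of culture. Both treatments were sequenced for every mouse, which makes 6 libraries, 3 per group. The labels give no strain, age or genotype of the mice, and no dead-cell cargo is named for these cultures. The members fall into 11 proteases, 12 glycosidases (counting the amidase Aga), 5 sulfatases, 7 lipid hydrolases with their cofactors and carriers, and 8 membrane proteins.

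Lysosomes are acidic organelles in which macrophages break down engulfed cells, lipoproteins and their own worn parts. Soluble hydrolases are made in the endoplasmic reticulum, tagged with mannose 6-phosphate and delivered through endosomes. Proteins of the limiting membrane shield the lysosome, move ions and carry products out. Many of the genes hold an E-box element, known as CLEAR, near their start, to which the transcription factors TFEB, TFE3 and MITF can bind.

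The members were matched by symbol to RefSeq promoters of GRCm38.p6, which run from 250 bases before to 50 after a gene's start. Of the 43 members, 36 had an entry. The 6 letters CACGTG, a palindrome that reads alike on both strands, were present in 15 of these 36 (41.7%, 95% Wilson interval 27.1% to 57.8%) and in 8.09% of all 27025 genes of the same table. By class, the letters were found in 5 of 9 proteases, 4 of 11 glycosidases, 2 of 4 sulfatases, 4 of 6 membrane proteins and 0 of 6 lipid hydrolases. The longer TCACGTGA, each copy of which is also a copy of the shorter one, was found in 6 members (Clcn7, Cln3, Ctsa, Ctsd, Gla and Mcoln1), or 16.7%, against 1.125% of all genes. A match describes letters only and shows neither binding nor use of the site.

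The sites with the longer match that lie before a RefSeq start are printed because they show the letters that these members share. Windows of up to 30 bases either side lay wholly in annotated exons for Cln3, Ctsa and Ctsd. For Gla 77 of 92 window bases were in exons, and for Mcoln1 53 of 92. Cln3 and Ctsa each had another promoter entry without CACGTG. These sites are thus not all outside annotated transcripts. The capitals mark TCACGTGA, and each line reads 5′ to 3′ on the gene's own strand.
Cln3, chr7:126583341-126583368, minus strand: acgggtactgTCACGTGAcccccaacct
Ctsa, chr2:164833750-164833772, plus strand: gagcaaactgTCACGTGAtgcag
Ctsd, chr7:142387909-142387936, minus strand: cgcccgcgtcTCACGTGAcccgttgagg
Gla, far site, chrX:134601216-134601243, minus strand: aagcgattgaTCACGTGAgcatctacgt
Gla, near site, chrX:134601183-134601210, minus strand: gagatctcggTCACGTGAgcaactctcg
Mcoln1, chr8:3500463-3500490, plus strand: ggcgccccgcTCACGTGAccgcggcgca
The site of Ctsa begins 13 bases before the start and that of Mcoln1 46 bases before it, whereas the far site of Gla begins 228 bases before it.

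Windows with the shorter match are shown for 4 members, with capitals on CACGTG. Lamp1 is printed for its 4 copies, Clcn7 because its levels did not overlap between treatments, and Glb1 and Gaa as examples with a single copy. None of the 4 windows touches an annotated exon.
Lamp1, chr8:13159070-13159160, plus strand: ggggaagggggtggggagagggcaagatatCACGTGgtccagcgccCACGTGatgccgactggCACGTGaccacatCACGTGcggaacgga
Clcn7, chr17:25133346-25133390, plus strand: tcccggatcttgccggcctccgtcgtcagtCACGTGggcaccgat
Glb1, chr9:114401000-114401065, plus strand: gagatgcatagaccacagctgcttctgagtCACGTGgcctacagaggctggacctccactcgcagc
Gaa, chr11:119267793-119267858, plus strand: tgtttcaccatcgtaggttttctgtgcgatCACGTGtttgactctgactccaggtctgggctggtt
The 15 members with CACGTG had a median log2 fold change (thiothixene over DMSO) of 0.08, with 9 of 15 above 0. The 21 members with an entry but without the letters had a median of 0.03, with 11 of 21 above 0.

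Counts assigned to genes ranged from 10472349 (DMSO, mouse b) to 22297520 (DMSO, mouse c). Levels below are CPM, counts scaled to library size with TMM factors, which ranged from 0.856 to 1.05. Of 9 macrophage markers, 8 were well above 0 in every library, and the list summed to between 9309 and 11124 CPM with thiothixene and between 9838 and 17343 CPM with DMSO. The exception was Itgam, an integrin subunit, listed at 0 in 5 libraries. Of 10 genes of neutrophils and their precursors none was at 0 throughout, and the list summed to 335 to 396 CPM with thiothixene and 366 to 848 CPM with DMSO, highest in DMSO of mouse b. The B cell markers Ms4a1 and Pax5 and the T cell marker Cd3d had 0 counts in all 6 libraries, while Cd79b, a B cell receptor subunit, was at 1.42 to 6.70 CPM. The B cell list summed to 1.47 to 7.15 CPM and the T and NK cell list to at most 0.740 CPM. Fibroblast genes summed to 55.3 to 289.7 CPM, highest in thiothixene of mouse c, and megakaryocyte genes, almost all Pf4, to 293 to 495 CPM with thiothixene and 339 to 1523 CPM with DMSO. All 8 macrophage markers that were tested had log2 fold changes below 0, and 0 were called. Thiothixene of mouse a, DMSO of mouse b and DMSO of mouse c stood apart from the other 3 libraries by their quality weights in limma-voom. These were 0.537, 0.209 and 0.228, against 2.28 to 6.23 in the others. The member values below do not set all 3 apart in the same way. The 3 libraries were picked from these same data, and results are given with and without them.

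Thiothixene and DMSO libraries were compared for every gene with edgeR's quasi-likelihood test, adjusted by Benjamini-Hochberg over 14856 tested genes. All 43 members were tested and 0 passed at an adjusted p of 0.05, as did 0% of all genes. The smallest adjusted p of a member was 0.99984 in edgeR and 0.209 in DESeq2. Of the 43 members, 24 (55.8%) had a log2 fold change above 0, against 45.3% of all tested genes, and their median was 0.05 against -0.04. At an unadjusted p of 0.05 or less, 0 members were higher with thiothixene and 2 were lower, Hgsnat and Ctsc. With the mouse as a block 1 remained under that threshold, Hgsnat at 0.0268, and Ctsc was at 0.0736 in edgeR. The same threshold took 0.882% of all tested genes as higher and 0.841% as lower. In 3 members every thiothixene library lay above every DMSO library (Tpp1, Npc1 and Clcn7), which is 6.98% of the members against 3.88% of all tested genes. In 2 members every thiothixene library lay below (Hgsnat and Ctsc), 4.65% against 2.77%.

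**Figure D1:**
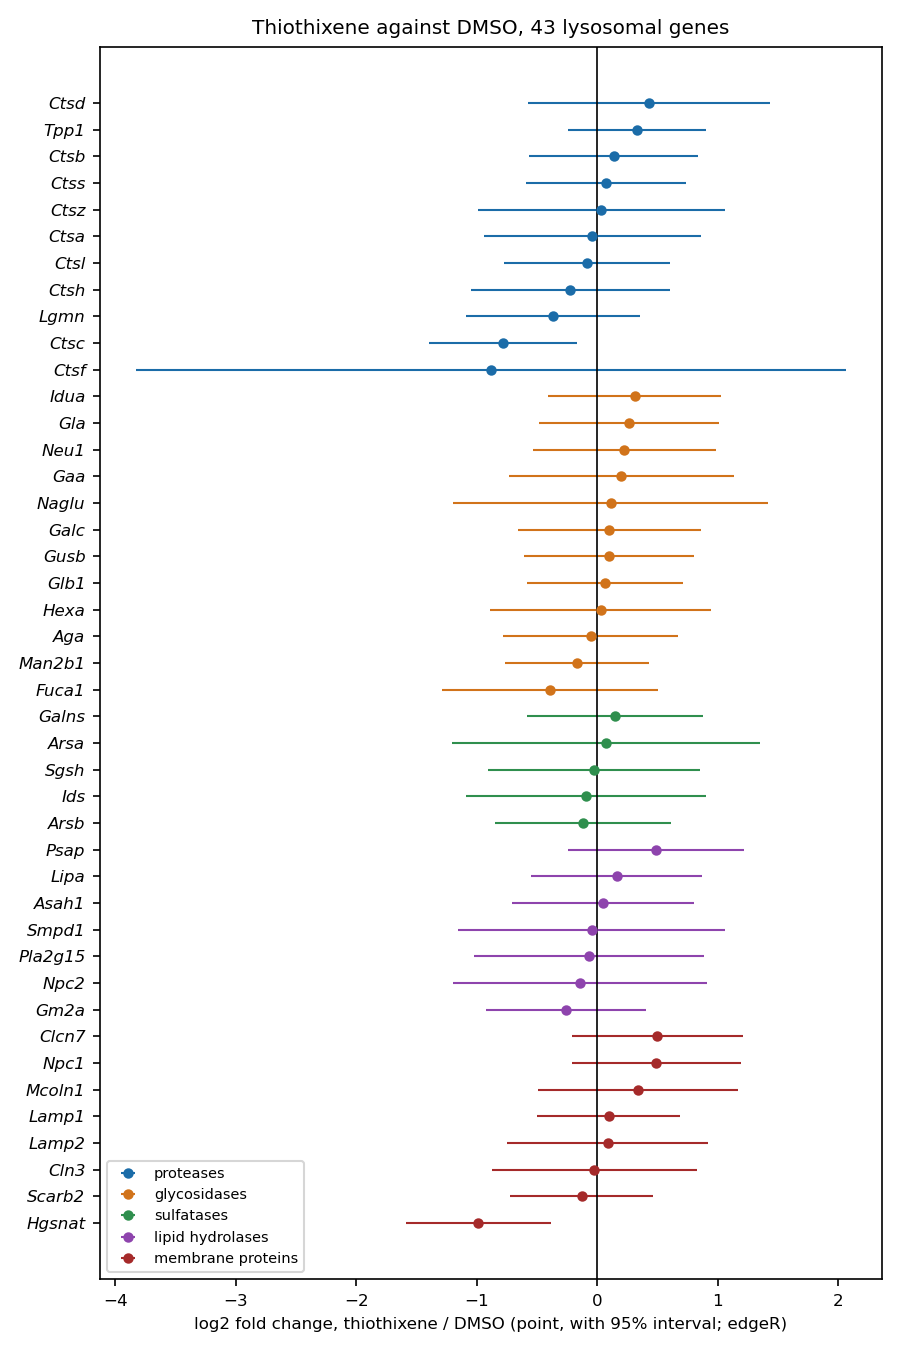
Log2 fold change of thiothixene over DMSO for each of the 43 members (x axis; points, edgeR estimates; lines, 95% intervals; colours, classes; genes on the y axis ordered by value within a class). The intervals of Hgsnat and Ctsc lie below 0, and those of the other 41 members cross 0.

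Hgsnat stood lowest among the members by fold change. It encodes the lysosome membrane enzyme that acetylates the ends of heparan sulfate chains so that they can be broken down further (ENSMUSG00000037260, chromosome 8, 25944453 to 25976753, minus strand of GRCm38). With thiothixene its level was 83.8, 84.3 and 74.4 CPM in mice a, b and c, the order used for all values below. With DMSO it was 172.8, 173.2 and 134.7 CPM. The highest thiothixene value thus lay well under the lowest DMSO value, and thiothixene was the lower library in 3 of 3 mice. The means were 80.9 ± 5.58 and 160.3 ± 22.1 CPM (SD, n = 3). Hgsnat had a log2 fold change of -0.99 (SE 0.26, 95% interval -1.59 to -0.38), 1.98-fold lower with thiothixene. Its unadjusted p in edgeR, 0.00524, ranked 27 of 14856, and its adjusted p was 0.99984.

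The difference in Hgsnat was -0.97 with offsets for GC content and length, and it ranged from -1.10 to -0.92 when each library was left out in turn. With library quality weights in limma-voom it was -1.06 with an adjusted p of 0.0358. Hgsnat was then the 1 called member of 43 (2.33%), among 25 called genes of 14856 tested, 16 of them lower. The weights were 2.28 for DMSO of mouse a and 0.209 and 0.228 for DMSO of mice b and c. The DMSO side of that fit thus rested mostly on mouse a. No exon base of Hgsnat is shared with another annotated gene.

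Other members act on heparan sulfate next to Hgsnat, and their libraries did overlap. Sgsh, the sulfatase that works one step earlier, had 67.1, 104.3 and 93.0 CPM with thiothixene and 111.1, 110.6 and 47.6 CPM with DMSO. Naglu, the glycosidase that acts on the acetylated end, had 102.6, 165.9 and 150.9 CPM with thiothixene and 128.5, 223.5 and 36.5 CPM with DMSO. Both had their lowest value in DMSO of mouse c, unlike Hgsnat. Idua, an iduronidase of the same route, had a log2 fold change of 0.31 (SE 0.31), from 58.5, 75.1 and 77.5 CPM with thiothixene and 69.7, 61.5 and 38.9 CPM with DMSO. Whether Hgsnat differed from these genes in its response was not tested.

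**Figure D2:**
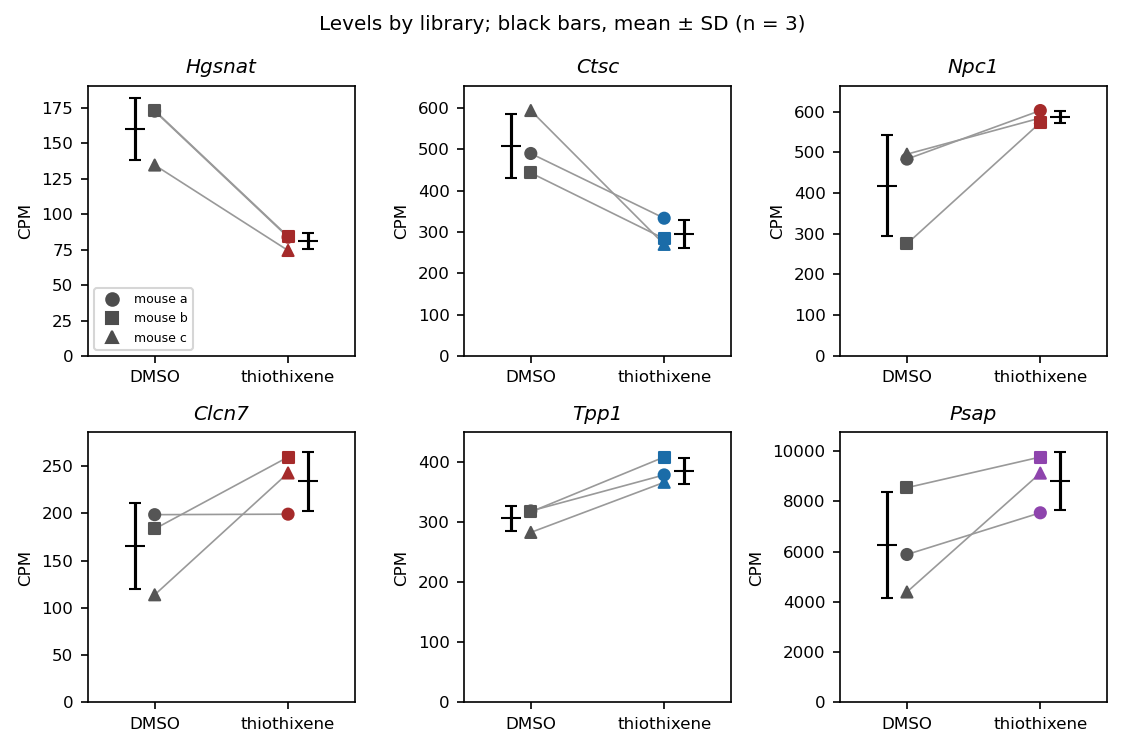
Levels of 6 members in CPM (y axis, from 0) in DMSO and thiothixene libraries (x axis; marker shapes, mice, joined by grey lines; black bars, mean ± SD, n = 3). Hgsnat and Ctsc lie lower in every thiothixene library than in any DMSO library; Npc1, Clcn7 and Tpp1 lie higher; Psap overlaps between treatments.

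Among the proteases, Ctsc was the member with the smallest p. It encodes dipeptidyl peptidase I, which trims and activates serine proteases stored in granules of leukocytes (ENSMUSG00000030560, chromosome 7, 88278085 to 88310888, plus strand). Thiothixene libraries held 333, 284 and 270 CPM and DMSO libraries 490, 443 and 594 CPM. All thiothixene values were lower than all DMSO values. Ctsc had a log2 fold change of -0.78 (SE 0.27, 95% interval -1.40 to -0.17), an unadjusted p of 0.0186 in edgeR and a rank of 94. It ranged from -0.87 to -0.66 when each library was left out in turn. The summed neutrophil and precursor genes were at 366 CPM in DMSO of mouse c, where Ctsc was highest, and at 848 CPM in DMSO of mouse b, where Ctsc was lowest of the 3 DMSO libraries. All 9 tested genes of that list had log2 fold changes below 0, as Ctsc did, with 0 called, and their part in the Ctsc difference was not tested. In such cultures fewer cells of a type and less RNA per cell cannot be told apart.

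Tpp1, a protease that removes tripeptides from the ends of proteins, differed the other way. Its level was 379, 409 and 367 CPM with thiothixene and 319, 317 and 283 CPM with DMSO. The groups did not overlap, and the spread within each was small, but the log2 fold change of 0.33 (SE 0.25, 95% interval -0.25 to 0.90) had an interval that included 0.

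Ctsb and Ctss were the proteases of highest level per kilobase of exon. Ctsb, a cysteine protease of broad specificity, stood at 13684, 13706 and 13262 CPM with thiothixene and 10569, 17110 and 9295 CPM with DMSO. The thiothixene libraries were close to each other, and the DMSO libraries lay on both sides of them. Its log2 fold change was 0.14 (SE 0.31). Ctss, a cysteine protease that trims the class II invariant chain, had 1495, 1570 and 1582 CPM with thiothixene and 1156, 1952 and 1306 CPM with DMSO, a log2 fold change of 0.07 (SE 0.29). Other annotated genes share 12.8% of the exon bases of Ctsb and of Hexa, 21.6% of those of Sgsh and 9.31% of those of Lamp1, so part of their reads may have been left uncounted or shared.

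Ctsd, the main aspartic protease of lysosomes, had 1254, 2444 and 2028 CPM with thiothixene and 1979, 1589 and 684 CPM with DMSO. It was lower with thiothixene in mouse a and higher in mice b and c. Of its exon bases, 34.4% are shared with other annotated genes. Ctsf, another cysteine protease, was the member of lowest level, with 1.80, 4.67 and 3.45 CPM with thiothixene and 6.34 and 12.2 CPM in DMSO of mice a and b. It had 0 counts in DMSO of mouse c, which allows up to 0.135 CPM by counting error, a limit taken without the TMM factor. The 11 proteases had a median log2 fold change of -0.04, with 5 above 0.

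The 12 glycosidases, which strip sugars from glycoproteins, glycolipids and glycosaminoglycans, had a median log2 fold change of 0.10, with 9 above 0 and 0 whose groups did not overlap. Hexa, the alpha subunit of beta-hexosaminidase, was highest per kilobase. It held 778, 916 and 880 CPM with thiothixene and 693, 1360 and 471 CPM with DMSO. Both extremes were DMSO libraries. Gusb, the beta-glucuronidase, likewise had DMSO of mouse b highest and DMSO of mouse c lowest, with 636, 644 and 576 CPM against 531, 787 and 416 CPM. Fuca1, the alpha-fucosidase, had 119.1, 129.2 and 128.5 CPM with thiothixene and 121.9, 269.2 and 103.9 CPM with DMSO. Its log2 fold change of -0.39 (SE 0.39) rested on DMSO of mouse b, without which it was 0.15.

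The 5 sulfatases had a median log2 fold change of -0.03, with 2 above 0. Galns, which removes sulfate from keratan and chondroitin sulfate, was highest per kilobase, at 138.3, 147.0 and 130.8 CPM with thiothixene and 119.1, 172.1 and 85.4 CPM with DMSO. Its thiothixene libraries again lay between the DMSO libraries. Arsb, which acts on dermatan and chondroitin sulfate, had 79.98, 60.5 and 57.7 CPM against 97.8, 59.9 and 57.0 CPM, with mouse a highest under both treatments. Of its exon bases 39.9% are shared with other genes. Arsa, the sulfatase for myelin sulfatide, had 14.7, 35.8 and 31.5 CPM with thiothixene and 29.7, 39.2 and 9.05 CPM with DMSO.

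Psap, the precursor of the saposins that help enzymes reach their lipid substrates, was the member of highest level per kilobase, and it is counted with the 7 lipid hydrolases (ENSMUSG00000004207, chromosome 10, 60277627 to 60302597, plus strand). It held 7541, 9758 and 9118 CPM with thiothixene and 5883, 8539 and 4391 CPM with DMSO. Its thiothixene level exceeded the DMSO level in 3 of 3 mice, but DMSO of mouse b lay above thiothixene of mouse a. Psap had a log2 fold change of 0.49 (SE 0.32, 95% interval -0.24 to 1.22). It was 0.29 without DMSO of mouse c and 0.78 without DMSO of mouse b.

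Lipa, the acid lipase that frees cholesterol and fatty acids from lipoprotein esters, had 2688, 2035 and 1905 CPM with thiothixene and 1882, 1480 and 2566 CPM with DMSO. It was highest in thiothixene of mouse a and DMSO of mouse c. Asah1, the acid ceramidase, showed the same 2 libraries on top, at 454.9 and 503.1 CPM, with 256.3 to 345.8 CPM in the other 4. Npc2, the soluble carrier that hands cholesterol to the membrane protein NPC1, had DMSO of mouse b highest and DMSO of mouse c lowest, at 652, 841 and 937 CPM with thiothixene and 663, 1573 and 453 CPM with DMSO. Gm2a, the activator of ganglioside breakdown, had 146.2, 166.8 and 160.1 CPM with thiothixene and 165.7, 246.3 and 153.1 CPM with DMSO. The class median was -0.05, with 3 of 7 above 0.

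The 8 membrane proteins had a median log2 fold change of 0.09 with 5 above 0, and 3 of the 8 had groups that did not overlap (Hgsnat lower, Npc1 and Clcn7 higher), where 2.77% of all tested genes were lower and 3.88% higher in that way. Npc1, named here after its values were seen, is the membrane transporter that moves cholesterol out of lysosomes. It held 603, 573 and 584 CPM with thiothixene and 483, 275 and 495 CPM with DMSO. The thiothixene libraries were close to each other, and DMSO of mouse b lay far under the rest. Npc1 had a log2 fold change of 0.49 (SE 0.31, 95% interval -0.21 to 1.19), which was 0.26 without DMSO of mouse b.

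Clcn7, a chloride and proton exchanger of the lysosome membrane, had 199.1, 259.6 and 242.7 CPM with thiothixene and 198.6, 183.5 and 113.8 CPM with DMSO. In mouse a the libraries were nearly equal, so the groups were separated by a narrow margin. Its log2 fold change was 0.50 (SE 0.31, 95% interval -0.21 to 1.21) and 0.29 without DMSO of mouse c.

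The abundant membrane glycoproteins did not separate the treatments. Lamp1 had 1954, 1762 and 1649 CPM with thiothixene and 1442, 1857 and 1724 CPM with DMSO, a log2 fold change of 0.10 (SE 0.26). Lamp2 had 813, 549 and 505 CPM with thiothixene and 534, 386 and 837 CPM with DMSO, a log2 fold change of 0.09 (SE 0.36). Mcoln1, the lysosomal cation channel TRPML1, had 70.3, 86.8 and 79.3 CPM against 70.7, 82.1 and 34.0 CPM, with only DMSO of mouse c apart from the rest. Scarb2, the receptor that carries beta-glucocerebrosidase to lysosomes, was lower with thiothixene in 3 of 3 mice by small margins, at 226.9, 197.4 and 183.0 CPM against 240.5, 202.7 and 221.0 CPM.

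**Figure D3:**
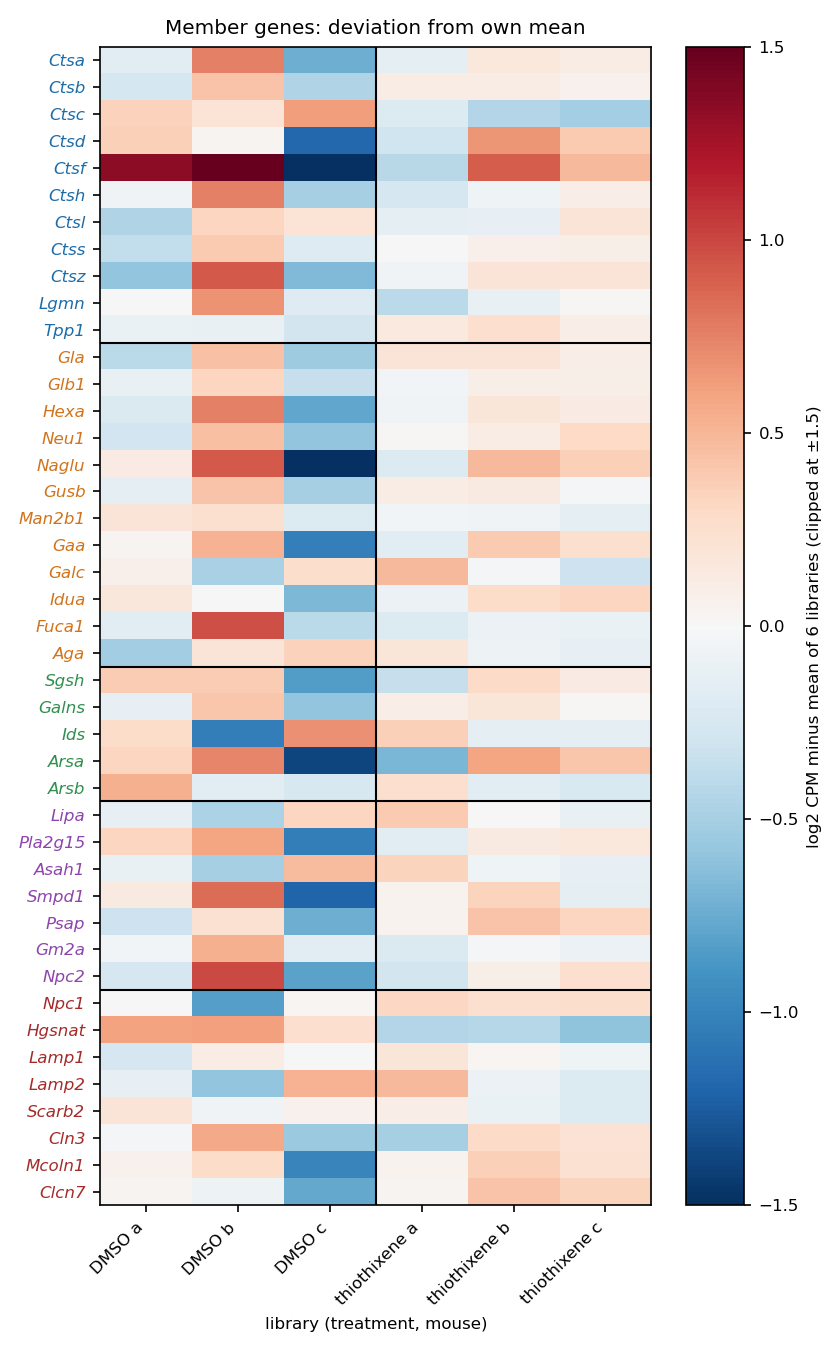
Deviation of each member (rows, grouped by class and coloured by it) from its own mean over the 6 libraries (columns), in log2 CPM; red is above the mean, blue below, and colours are clipped at 1.5. DMSO of mouse b is the highest library for 25 members and DMSO of mouse c the lowest for 28.

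The highest and lowest values of most members were both DMSO libraries. DMSO of mouse b was the highest library for 25 of 43 members, against 33.9% of all tested genes. DMSO of mouse c was the lowest library for 28 of 43, against 31.7% of all tested genes. The macrophage and neutrophil marker lists also summed highest in DMSO of mouse b, and their part in the members' values was not tested. Within mice, 22 of 43 members (51.2%) were higher with thiothixene in mouse a, 13 (30.2%) in mouse b and 32 (74.4%) in mouse c. Over all tested genes the shares were 47.9%, 50.6% and 51.9%. The member medians were 0.00, -0.27 and 0.51 in log2 CPM, against -0.03, 0.01 and 0.05 over all tested genes. In 3 of 3 mice, 4 members were higher (Psap, Tpp1, Npc1 and Clcn7) and 3 were lower (Hgsnat, Ctsc and Scarb2). The share of all tested genes that agreed in 3 of 3 mice was not counted.

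These deviations went with the GC content of the transcripts. Across the 43 members, which share libraries and are not independent replicates, the deviation from a gene's own mean correlated with GC content at r = -0.59 in thiothixene of mouse a, 0.63 and 0.58 in thiothixene of mice b and c, 0.19 and 0.64 in DMSO of mice a and b, and -0.69 in DMSO of mouse c. The last was -0.86 without Ctsf. Over 14565 genes the values were -0.45, 0.31, 0.37, 0.16, 0.41 and -0.54 in the same order. The 6 deviations of a gene sum to 0, so these values are not independent of each other.

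Of the 21 members richest in GC, those above 51.3%, DMSO of mouse c was the lowest library for 19, with a median deviation of -0.74 in log2 CPM. The 22 members poorer in GC had a median of -0.06 there. Among them Lipa, Galc and Npc1 were highest in thiothixene of mouse a, and Asah1, Lamp2, Ids, Ctsc and Aga in DMSO of mouse c. For 10 of the same 22 members DMSO of mouse b was the highest library, and for 9 DMSO of mouse c was the lowest. Reads not aligned made up 4.98% of all counts in thiothixene of mouse a and 4.52% in DMSO of mouse c. They made up 1.85% to 2.31% in the other 4 libraries. The treatment difference itself showed little relation with GC content over the members (r = 0.08). The part of RNA quality or library preparation in the pattern was not tested.

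**Figure D4:**
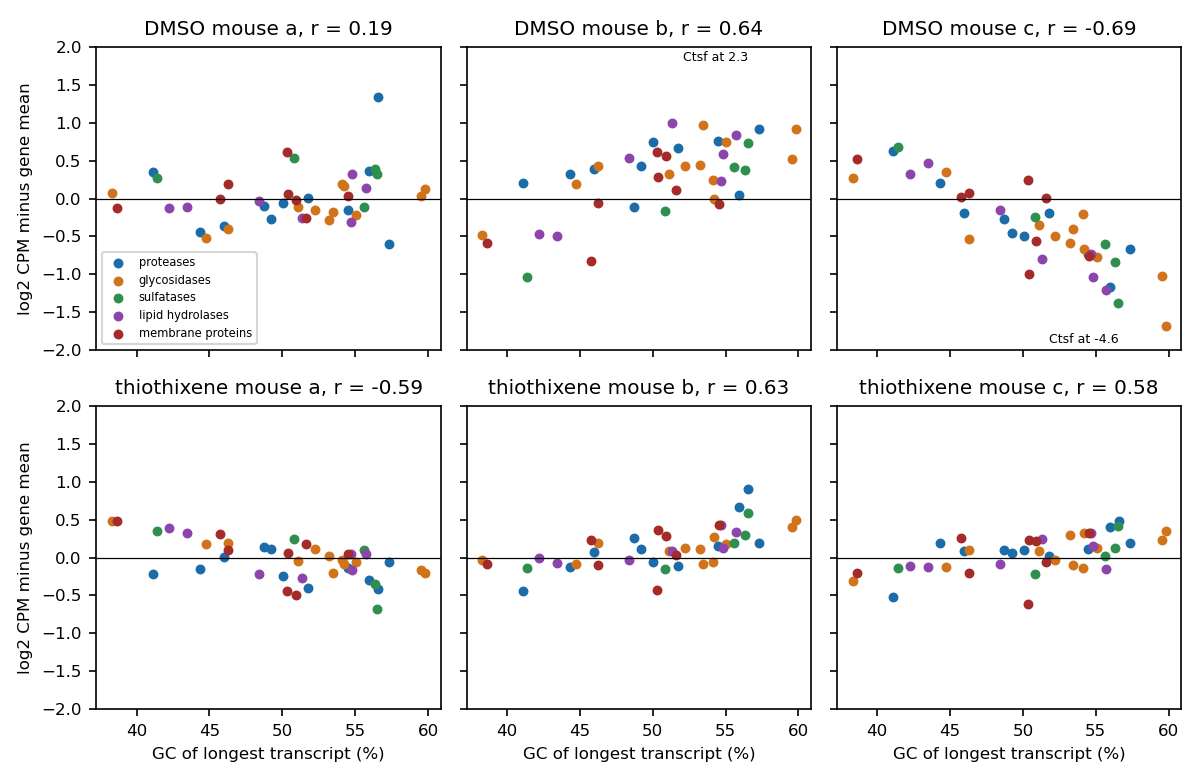
Deviation of each member from its own mean (y axis, log2 CPM) against the GC content of its longest transcript (x axis, percent), a panel per library, with classes in colour and r over the 43 members in each title. The points slope down in thiothixene of mouse a and DMSO of mouse c and up in thiothixene of mice b and c and DMSO of mouse b; values of Ctsf beyond the axis are written in.

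Taken as a sum, the 43 members made up 4.15%, 4.34% and 4.19% of gene counts with thiothixene and 3.53%, 4.12% and 3.14% with DMSO. In these unscaled shares each thiothixene library was above each DMSO library, although thiothixene of mouse a and DMSO of mouse b lay close together. The shares leave out the TMM factors, which were 0.856 for DMSO of mouse b and 1.04 for thiothixene of mouse a. Scaled by these factors the groups overlap, as Ctsb and Psap did in CPM. The means were 4.23 ± 0.102% and 3.60 ± 0.492% (SD, n = 3), a difference of 0.631 percentage points. The 3 most abundant members, Ctsb, Psap and Lipa, together held most of it, since without these 3 the difference was 0.117 percentage points and the libraries overlapped. Lipa itself was higher in DMSO of mouse c than in thiothixene of mice b and c. The lipid hydrolases and their cofactors, led by Psap, took 1.21%, 1.34% and 1.28% with thiothixene and 0.962%, 1.06% and 0.857% with DMSO. These unscaled shares did not overlap, but they do overlap when scaled by the TMM factors. The proteases took 2.15%, 2.26% and 2.21% with thiothixene and 1.88%, 2.37% and 1.64% with DMSO, and did overlap. Membrane proteins took 0.418%, 0.365% and 0.347% against 0.341%, 0.283% and 0.382%.

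**Figure D5:**
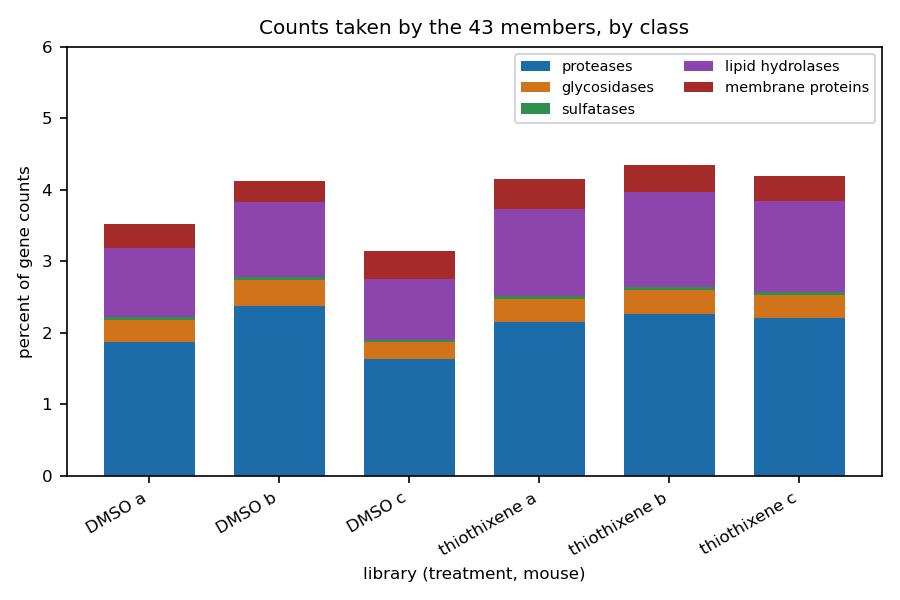
Percent of gene counts (y axis, from 0) taken by the 43 members in each of the 6 libraries (x axis), stacked by class. The thiothixene bars reach 4.15% to 4.34% and the DMSO bars 3.14% to 4.12%, in counts without TMM factors.

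Without the 3 libraries that stood apart, thiothixene of mice b and c was set against DMSO of mouse a alone. Treatment and mouse thus cannot be told apart, and the spread of the single DMSO library had to be taken from the thiothixene pair. The 3 libraries were set apart by low weights, which fall as a library departs from its group. Leaving them out makes the spread small by choice, so the calls below cannot be read as tests of treatment. In that fit 9 of 43 members (20.9%) were higher at an adjusted p of 0.05 in edgeR, against 4.02% of 15807 tested genes, and 5 (11.6%) were lower, against 2.97%. The higher members were Psap, Neu1, Ctsz, Npc2, Ctsb, Hexa, Gla, Clcn7 and Ctss. The lower members were Hgsnat, Ctsc, Scarb2, Ids and Arsb. Psap had a log2 fold change of 0.69 there, Hgsnat -1.12 and Ctsc -0.82. The median over all 43 was 0.20 against 0.01 over all genes. Leaving out 1 library moved the count of members above 0 from 24 to 16 (without DMSO of mouse c) or to 31 (without DMSO of mouse b). The class medians moved too. Without DMSO of mouse b the proteases had a median of 0.33, the sulfatases 0.15 and the lipid hydrolases 0.25, and without DMSO of mouse c the glycosidases had a median of -0.08. With all 6 libraries and the mouse as a block, 31 members were above 0, and the medians were 0.09 for the proteases, 0.05 for the sulfatases and 0.10 for the lipid hydrolases, each on the other side of 0 from the fit without it.

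Other genes of the lysosomal route, 49 in 5 lists, were read from the same fit. All were tested, 0 passed, 25 of 49 were above 0 (51.0%, against 45.3% of all tested genes) and their median log2 fold change was 0.02. In 5 of them (10.2%, against 3.88% of all tested genes) every thiothixene library lay above every DMSO library, among them Igf2r, Hyal1 and Slc29a3, and in 0 every one lay below, against 2.77%. Igf2r, the large mannose 6-phosphate receptor that sorts hydrolases to endosomes, had 506, 557 and 476 CPM with thiothixene and 362, 155 and 346 CPM with DMSO, a log2 fold change of 0.83 (SE 0.36) with an unadjusted p of 0.0492 in edgeR. DMSO of mouse b was the lowest library for Igf2r, as it was for Npc1. Hyal1, a hyaluronidase, had 10.6, 15.8 and 10.5 CPM against 8.71, 2.68 and 5.89 CPM.

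Of the 4 factors that bind the E-box, 1 was above 0, and none separated the treatments. Tfeb had 38.0, 57.0 and 57.8 CPM with thiothixene and 59.0, 78.2 and 25.7 CPM with DMSO, with the same libraries at the top and bottom as Hexa and Npc2. Tfec, the member of smallest p in that list, had a log2 fold change of -0.26 (SE 0.28). Cst3, the secreted inhibitor of cysteine cathepsins, had 279.6, 400.2 and 411.5 CPM against 397.5, 1005 and 199.6 CPM, a log2 fold change of -0.55 (SE 0.54) that was 0.29 without DMSO of mouse b.

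Ordered by level per kilobase of exon over all 6 libraries, Psap (2747 CPM per kilobase) and Ctsb (2138) led, followed by Ctss (1112), Ctsd (707) and Lamp1 (647). Psap stood above Ctsb under both treatments, at 3209 against 2239 CPM per kilobase with thiothixene and 2285 against 2037 with DMSO. The DMSO libraries of both genes varied by more than the latter gap. Lengths took all annotated exons of a gene together, 2744 bases for Psap and 6051 for Ctsb, so the order depends on the annotation. In CPM Ctsb stood above Psap, at means of 13551 against 8806 with thiothixene and 12325 against 6271 with DMSO. The sulfatases ranged from Galns at 49.9, rank 22 of 43, to Arsa at 7.24 CPM per kilobase, rank 42, and Ctsf was last at 0.940. The 43 members had a median range of 1.1 in log2 CPM from the lowest to the highest library, against 1.4 over all tested genes.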

How the data were processed

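RNA was sequenced as paired ends from 6 macrophage libraries. The authors deposited whole-number counts per Ensembl gene, not normalized, in 1 table per library. The submitters' processing notes name the mm10 build, STAR 2.7.11b, DESeq2 1.44, Trim Galore 0.6.10 and FastQC 0.11.8, without their roles. Which program counted the reads, and whether by strand, is not given in the sources used here, so reads shared with overlapping or antisense genes cannot be separated. Rows naming no gene (reads outside genes, 43.1% to 44.3% of counts per library, and reads ambiguous, unaligned or not unique) stayed out. Symbols, lengths and GC came from GENCODE on GRCm38 (52073 identifiers matched, 4618 did not, 0.4% of counts).

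All genes were fitted with edgeR 4.0.16 (R 4.3.3; quasi-likelihood, robust, TMM, filterByExpr, treatment as the sole term). SE is the absolute log2 fold change over the square root of F. DESeq2 1.42.0 and limma-voom (limma 3.58.1), a mouse block, RLE factors, no filter, GC and length offsets (splines, 5 degrees of freedom), quality weights and left-out libraries were alternatives. The sample titles name the same mice a, b and c under both treatments, which pairs the libraries; same-mouse deviations correlated at -0.131, 0.318 and -0.301 for mice a, b and c. By the labels, replicates are different mice. The procedure was tested on simulated data with less spread between libraries than these data hold and with no trend on GC content. That test does not show how often changes of the size seen here would be called. Members and lists were chosen with earlier results of these data known. By the rule set, the text names in full the 2 members of smallest p and the 2 of highest level per length in each class. In each other list it names the 1 gene of smallest p. Any other member may be named, and Npc1 and Tfeb were added after their values were seen. Values in every library are also given, outside that rule, for Ctsd, Ctsf, Naglu, Arsa, Npc2, Mcoln1 and Scarb2. Some genes of the lists are not reported here. Intervals of shares and limits from 0 counts (3 counts) cover counting error only.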

Additional observations from a re-analysis of the deposited data

How the results depend on the processing

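The count of called members, 0 in edgeR with all 6 libraries, was 1 with limma-voom and library quality weights and 14 without the 3 libraries that stood apart; in the other alternatives run it was 0. With the mouse as a replicate block it was 0, the median of the membrane proteins was 0.117 and the log2 fold change of Sgsh 0.048, and the block changed no call; 31 members were above 0 with it and 32 in limma-voom, against 24. The median of the membrane proteins was 0.119 without a low-count filter, 0.233 with quality weights, 0.039 with GC and length offsets, 0.056 with these offsets and the block, and 0.243 without the 3 libraries; it ranged from 0.020 to 0.219 when each library was left out in turn. The median of the proteases was 0.298 with quality weights and ranged from -0.23 to 0.33 over the left-out libraries, while that of the glycosidases ranged from -0.080 to 0.381, of the sulfatases from -0.256 to 0.164 and of the lipid hydrolases from -0.383 to 0.247. The difference in the share of gene counts was 0.117 percentage points without the 3 most abundant members. Signs of single genes turned as well. With GC and length offsets Ctsb was -0.016 and Lamp2 -0.023 (-0.0054 with the block); Sgsh was 0.013 without a filter and 0.063 in limma-voom; Fuca1 was 0.016 with quality weights. Without the 3 libraries Fuca1 was 0.087, Lamp2 -0.012 and Cst3 0.036. With each library left out in turn, Ctsb ranged from -0.028 to 0.448, Ctss from -0.067 to 0.333, Fuca1 from -0.635 to 0.155, Hexa from -0.256 to 0.561, Gusb from -0.089 to 0.386, Galns from -0.067 to 0.440, Arsb from -0.273 to 0.183, Sgsh from -0.329 to 0.164, Lipa from -0.011 to 0.396, Lamp2 from -0.145 to 0.437 and Cst3 from -0.944 to 0.287. Hgsnat, Ctsc, Tpp1, Npc1, Clcn7 and Psap kept their sign in all these alternatives. Idua, Gm2a and Lamp1 did too, as did Tfec, Igf2r, Hyal1 and Slc29a3 of the other lists. A kept sign is not particular to large differences, since Lamp1 was at 0.0056 without DMSO of mouse a. The cause of these shifts was not tested. The biological coefficient of variation over all genes was 46.0%, and DMSO of mouse b had the fewest counts.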
